A study of Mus musculus with 6 samples.

Results

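Adenylyl cyclases are the enzymes that make cyclic AMP (cAMP) from ATP. The 10 mouse genes Adcy1 to Adcy10 were taken by symbol from the 24421 genes of the RNA-seq count matrix, and all 10 were present. Libraries had been made from CD4+YFP+ regulatory T (Treg) cells sorted from the spleens of female C57BL/6 mice aged 8 to 11 weeks, and RNA was extracted without further treatment. The 3 WT mice were Foxp3Cre and the 3 KO mice were Foxp3Cre miR-142fl/fl, so both groups carried the Foxp3 allele that expresses the YFP-Cre fusion, and only the KO mice carried the floxed miR-142 alleles. Cre was driven by Foxp3, the transcription factor that defines Treg cells, so deletion was directed to Foxp3-expressing cells. In the KO mice the lineage as a whole was targeted, so an effect within the cell and an effect of the state of the animal cannot be told apart. Each mouse gave 1 library.

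Of the members, 9 are membrane enzymes that the stimulatory G protein subunit Gαs switches on when a receptor binds its ligand, and the remaining member, Adcy10, is a soluble enzyme that responds to bicarbonate. The membrane enzymes differ in their other inputs, since Adcy1, Adcy3 and Adcy8 respond to calcium and calmodulin, Adcy2, Adcy4 and Adcy7 are enhanced by Gβγ, Adcy5 and Adcy6 are inhibited by Gαi and by calcium, and Adcy9 is inhibited by calcineurin and responds poorly to forskolin. cAMP acts through protein kinase A (PKA) and the exchange factors EPAC, is destroyed by phosphodiesterases, and dampens activation of T cells. Treg cells are known for a high cAMP content, which they can pass to other T cells. Earlier work by others on T cells described the Adcy9 transcript as a target of miR-142-3p.

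The miR-142 hairpin lies on the plus strand of chromosome 11 and yields a product from each arm. The mature sequences are shown because their seeds, bases 2 to 8 in capitals, set the letters searched for in the 3′ untranslated regions (UTRs) of the cyclases. They were taken from RefSeq for GRCm38, at chr11:87756903-87756925 for the 3p arm and chr11:87756867-87756887 for the 5p arm.
mmu-miR-142a-3p: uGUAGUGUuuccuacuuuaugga
mmu-miR-142a-5p: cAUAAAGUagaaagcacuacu

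The transcript strand of the 3′ UTRs was searched for ACACTAC, the complement of the 3p seed, for AACACTA, the same register moved by 1 base, and for ACTTTAT, the complement of the 5p seed. For each of these, a shorter type, without the last base of the seed and with an A after it, was added after the data had been seen, which gave CACTACA for the 3p arm, ACACTAA for its moved register and CTTTATA for the 5p arm. These types share letters with the longer ones, so that 1 stretch can hold more than 1 of them. None of the 10 members held ACACTAC or AACACTA in an annotated 3′ UTR, against 7.0% and 10.2% of the 11102 tested genes with a UTR in GENCODE vM21. ACTTTAT was present in 2 members, Adcy7 and Adcy8, and in 15.9% of the tested genes. CACTACA was present in 1 member, Adcy7, where it occurred at 2 positions, and in 8.68% of the tested genes. ACACTAA and CTTTATA were present in 0 members, against 10.1% and 15.2% of the tested genes. The 4 stretches are shown with the match in capitals, each read on the strand of its gene, which is plus for Adcy7 and minus for Adcy8, and the coordinates are those of the match.
Adcy7, 5p match at chr8:88328639-88328645: tgtttcagtttttctgtgtgcACTTTATtt
Adcy7, 3p CACTACA at chr8:88327899-88327905: gcagtggcttctttggacttgCACTACAgg
Adcy7, 3p CACTACA at chr8:88329048-88329054: tgacttcactgccacagaacgCACTACAtc
Adcy8, 5p match at chr15:64697873-64697879: ttgatttgttgtcgctgagagACTTTATcc

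These matches are letters in a window and were not tested as binding sites. All 3 in Adcy7 lay in exon 28 of 28, and its 3′ UTR was 2144 bases long. For Adcy9 the window was short, because its 3′ UTR in GENCODE was 369 bases, and RefSeq placed the 3′ end of the gene 2643 bases further than GENCODE did. That stretch was not searched, so nothing is said here of matches in the longer Adcy9 transcript. The other 3′ UTRs ranged from 84 bases in Adcy4 to 8791 bases in Adcy1.

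The libraries held between 13883069 and 24042994 counts. Counts were scaled to the library total as counts-per-million (CPM) values, so that the 3 counts taken as the floor equalled 0.125 to 0.216 CPM, a limit that covers counting error only. Deletion was checked on Mir142b, annotated antisense at the miR-142 locus, which had 147, 101 and 105 counts in WT and 7, 5 and 5 counts in KO libraries, while Mir142 had 0 in all 6, and without strand the reads of this pair cannot be told apart. All 8 Treg marker genes exceeded 1 CPM in every WT library, and their sum was 5722 to 6195 CPM in WT and 7088 to 8164 CPM in KO libraries. Il2ra, which is among them, went from a mean of 777 CPM in WT to 2501 CPM in KO. The sums therefore do not show that the Treg markers as a group were higher in KO. KO replicate 1 stood apart by markers of other cells. Monocyte and macrophage genes summed to 2766 CPM there, against 75.2 and 20.2 CPM in the other KO libraries and at most 13.9 CPM in WT, and 12 of 12 were highest in that library. The B cell genes reached 2260 CPM there (192 and 281 in the other KO libraries, 60.9 to 75.8 in WT), the dendritic cell genes 1610 CPM (44.9 and 55.3, against 4.33 to 5.36) and the neutrophil genes 881 CPM (7.35 and 40.5, against 0.281 to 1.36). S100a8, Retnlg, Lcn2, Fcgr1, Clec9a and Siglech were at 0 in every WT library. In that library 9 of 9 B cell, 7 of 8 dendritic cell and 11 of 12 neutrophil genes were highest. Values of the cyclases are therefore given with and without KO replicate 1.

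Adcy7, whose product is the Gβγ-enhanced cyclase typical of blood cells, was by far the most abundant member in Treg cells of both genotypes. Levels of different genes are compared here per length, as CPM divided by the exon length in kilobases (RPKM). In WT cells Adcy7 stood at 72.4 ± 3.67 RPKM (SD, n = 3 per group throughout). Adcy6 at 8.82 ± 0.678 and Adcy3 at 8.66 ± 0.490 RPKM followed, and their libraries overlapped, so these neighbours could not be ordered with the lengths used. Adcy9 was next at 1.12 ± 0.0956 RPKM. Adcy1, Adcy5 and Adcy4 came below 0.1 RPKM at 0.0877, 0.0868 and 0.0487, again with overlap, and Adcy10 and Adcy2 lay at 0.00866 and 0.00511 RPKM. Adcy8 had no count in any of the 6 libraries, for which 3 counts in 104623790 would allow 0.0287 CPM. In KO cells Adcy7 was again above the rest and Adcy9 below Adcy6 and Adcy3, which again overlapped, with Adcy7 at 52.2 ± 10.5, Adcy6 at 8.63 ± 1.45, Adcy3 at 7.58 ± 1.03 and Adcy9 at 1.72 ± 0.465 RPKM. Adcy4, at 0.321 ± 0.272 RPKM, was then the fifth, overlapping Adcy5 at 0.110 RPKM, and without KO replicate 1 these were 0.165 and 0.0783 RPKM. The KO means of Adcy7 and Adcy9 without that library were 48.5 and 1.98 RPKM. A longer Adcy9 transcript, as in RefSeq, would lower its RPKM in both genotypes alike. The exon length of Adcy3 includes 1380 bases shared with Cenpo on the opposite strand, where reads counted without strand cannot be assigned. The RPKM of Adcy3 may therefore be too low, and its place beside Adcy6, its share and its ratios depend on that length.

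**Figure D1:**
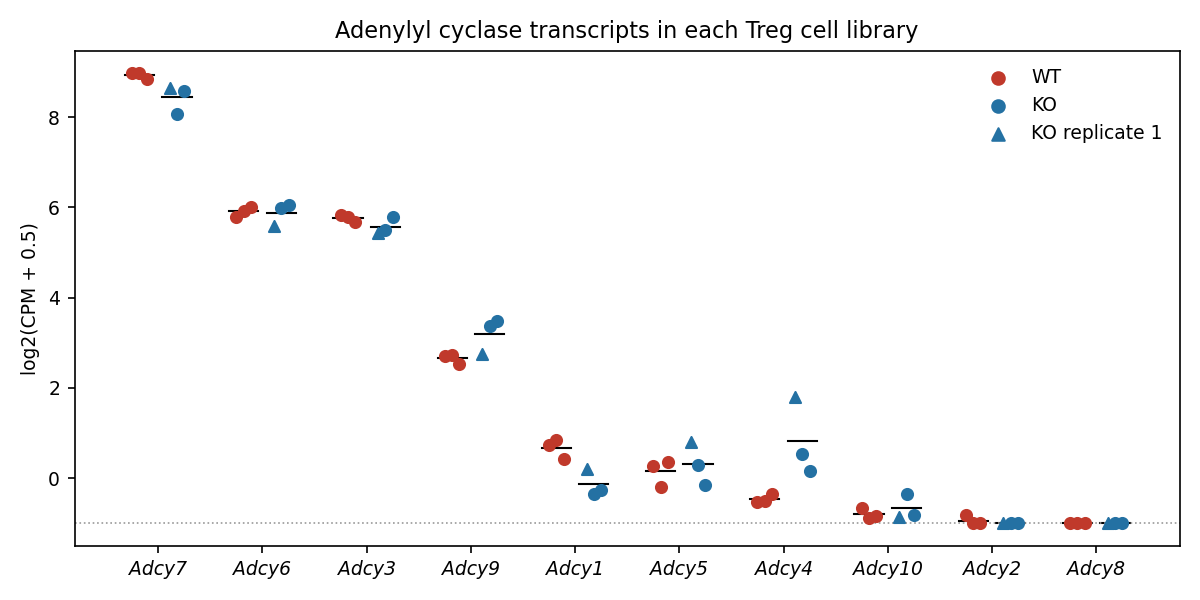
The level of each of the 10 adenylyl cyclase genes, as log2(CPM + 0.5), is on the vertical axis for the 3 WT (red) and 3 KO (blue) libraries, with KO replicate 1 as a triangle, lines at the group means and a dotted line at the value of 0 counts. The WT libraries of Adcy7, between 459 and 502 CPM, sit above all KO libraries, and those of Adcy9, between 5.23 and 6.11 CPM, sit below all KO libraries.

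The comparison of KO with WT asked whether Treg cells without miR-142 carried other amounts of cyclase mRNA. At a false discovery rate (FDR) of 0.05 in the edgeR quasi-likelihood test, 0 of the 4 members abundant enough to be tested were called, whereas 18.8% of the 11658 tested genes were. An unadjusted p under 0.05 was given to 2 members, Adcy7 and Adcy9, and to 34.8% of the genes. DESeq2 called 1 member, Adcy7, and 24.6% of the genes, and the edgeR likelihood ratio and exact tests called 0 members, with 19.4% and 18.9% of the genes. Over all genes the quasi-likelihood test called 1350 higher (11.6%) and 847 lower (7.27%) in KO, a split that became 1064 and 1201 when counts were scaled by library size alone. Groups did not overlap in CPM for 2 of the 4 tested members, and for 42.6% of the tested genes. The 6 members below the filter, which needed more than 1 CPM in at least 3 libraries, are described separately. As the sorted cells were profiled in bulk, fewer cells that express a gene and less of its RNA per cell cannot be told apart.

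Adcy7 had 502, 502 and 459 CPM in WT and 401, 270.1 and 383 CPM in KO libraries. All KO libraries were below all WT libraries, as for 25.9% of tested genes, and the lowest was KO replicate 2. The mean was 488 ± 24.7 CPM in WT and 351 ± 71.0 CPM in KO cells. The log2 fold change was −0.39 (SE 0.15, 95% interval −0.73 to −0.05), or 1.31-fold lower in KO, with an edgeR adjusted p of 0.104. Without KO replicate 1, Adcy7 fell by 0.52 on the log2 scale (SE 0.14, 1.43-fold lower), with an edgeR adjusted p of 0.0444, in a fit that called 17.3% of genes, and 7.59% as lower. Without KO replicate 2, the lowest library, the value was −0.24 with an edgeR adjusted p of 0.102. Leaving out each library in turn gave edgeR adjusted p from 0.0444 to 0.265, and DESeq2 with all libraries gave −0.40 with an adjusted p of 0.0455. The call therefore depended on the tool and on 1 library. The gene spans chr8:88272403-88329962 on the plus strand.

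Adcy9 had 6.07, 6.11 and 5.23 CPM in WT and 6.18, 9.87 and 10.7 CPM in KO libraries. Every KO library was above every WT library, as for 16.7% of tested genes, but KO replicate 1 exceeded the highest WT library by little. The mean was 5.80 ± 0.497 CPM in WT and 8.93 ± 2.41 CPM in KO cells. The log2 fold change was 0.70 (SE 0.24, 95% interval 0.14 to 1.27), a 1.63-fold difference with an edgeR adjusted p of 0.0837, and DESeq2 gave 0.69 with an adjusted p of 0.0578. Without KO replicate 1, Adcy9 rose by 0.89 on the log2 scale (SE 0.18, 1.86-fold), with an edgeR adjusted p of 0.0150, and that fit called 9.69% of genes as higher. Leaving out each library in turn gave edgeR adjusted p from 0.0150 to 0.232. The differences of Adcy7 and Adcy9 were thus both larger without the library with the high markers of other cells, whose part in this was not tested. Leaving out any WT library or KO replicate 3 also enlarged the difference of Adcy7 or Adcy9, and reduced that of the other. Adcy9 lies on the minus strand at chr16:4287529-4420498.

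Adcy3, a calmodulin-regulated cyclase best known from olfactory neurons and primary cilia, had 56.7, 54.8 and 50.7 CPM in WT and 42.5, 44.9 and 54.6 CPM in KO libraries. KO replicate 3 lay within the WT range, so the groups overlapped. Its log2 fold change was −0.11 (SE 0.11, 95% interval −0.37 to 0.15) with an edgeR adjusted p of 0.523, an interval that spans KO to WT ratios of 0.774 to 1.11. Without KO replicate 1 the value was −0.05 with an edgeR adjusted p of 0.788. The opposite strand carries Cenpo, a centromere protein gene, whose exons share 1380 bases, or 22.1%, of the exons of Adcy3. Reads were counted without strand, so reads in the shared stretch cannot be assigned to either gene. Cenpo itself stood at 21.1 ± 0.659 CPM in WT cells against 16.5 ± 1.31 CPM in KO, with a log2 fold change of −0.27 and an edgeR adjusted p of 0.146. Adcy3 spans chr12:4133103-4213525 on the plus strand.

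Adcy6, a cyclase inhibited by Gαi and calcium, had 55.1, 60.2 and 64.2 CPM in WT and 47.3, 63.0 and 65.4 CPM in KO libraries. The groups overlapped, with both the lowest and the highest value in KO. Its log2 fold change was 0.05 (SE 0.14, 95% interval −0.28 to 0.38) with an edgeR adjusted p of 0.831, and the interval spans KO to WT ratios of 0.821 to 1.30. The value was −0.03 with library size alone and 0.17 without KO replicate 1, so no direction is given. An antisense transcript, Gm29331, shares 605 bases of the Adcy6 exons and was not among the genes of the matrix. Adcy6 spans chr15:98589973-98610076 on the minus strand.

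**Figure D2:**
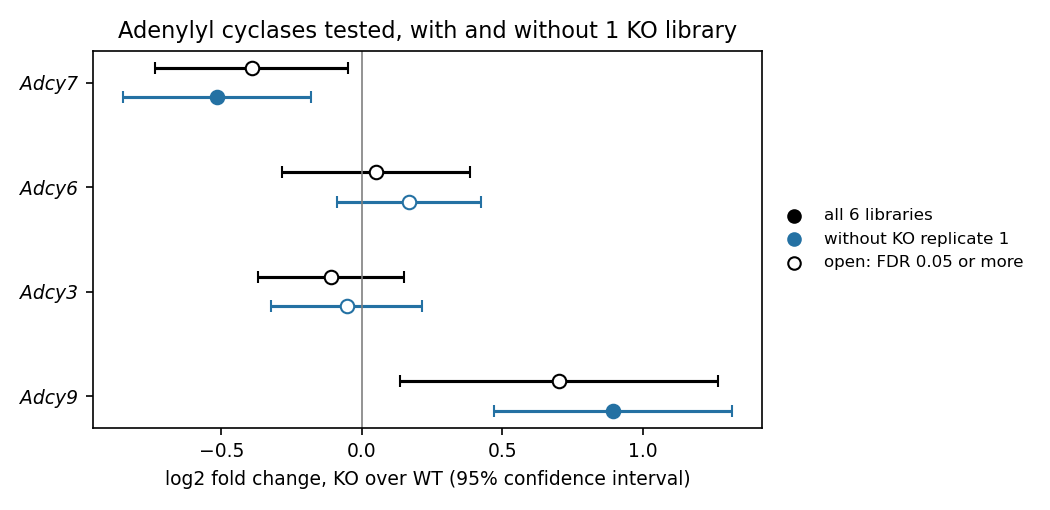
The log2 fold change of KO over WT is on the horizontal axis for Adcy7, Adcy6, Adcy3 and Adcy9, with bars for the 95% interval, with all 6 libraries in black and without KO replicate 1 in blue, and open points for an FDR of 0.05 or more. With all libraries the interval of Adcy7 (−0.73 to −0.05) lies below 0 and that of Adcy9 (0.14 to 1.27) above 0, and both estimates are further from 0 without KO replicate 1, at −0.52 and 0.89.

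The 6 members under the filter had low counts, between 0 and 55 per library. An exact permutation test, two-sided, cannot go below a p of 0.1 with 3 libraries in each group, so none of these could pass 0.05. The share of genes below the filter whose groups do not overlap was not computed, so separation of a member here has no background to be read against. Adcy4, a Gβγ-enhanced cyclase known from vascular endothelium, had 3, 5 and 5 counts in WT and 55, 13 and 9 counts in KO libraries. In CPM these were 0.194, 0.208 and 0.281 against 2.96, 0.936 and 0.607, so that the groups did not overlap and KO replicate 1 was the highest. Adcy4 spans chr14:55769057-55784095 on the minus strand. The exact permutation p for Adcy4 was 0.1. With no filter the edgeR fit called 10.1% of 17585 genes and gave Adcy4 a log2 fold change of 2.75 (SE 0.68) with an adjusted p of 0.0439, although only KO replicate 1 exceeded 1 CPM. With no filter and without KO replicate 1 it was 1.77 (SE 0.60, 3.42-fold) with an edgeR adjusted p of 0.0687, in a fit that called 14.2% of genes. The difference in Adcy4 was thus smaller without the library in which monocyte, dendritic and B cell genes were high, and their part in it was not tested.

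Adcy1, a calmodulin-stimulated cyclase known from neurons, had 18, 31 and 15 counts in WT and 12, 4 and 5 counts in KO libraries. The corresponding levels were 1.16, 1.29 and 0.844 CPM in WT and 0.645, 0.288 and 0.337 CPM in KO libraries. The groups did not overlap, again without a share of such genes to set beside it. The exact permutation p was 0.1, the smallest possible. With no filter the log2 fold change of Adcy1 was −1.28 (SE 0.45) with an edgeR adjusted p of 0.113. With no filter and without KO replicate 1, Adcy1 fell by 1.74 on the log2 scale (SE 0.53, 3.35-fold lower) with an edgeR adjusted p of 0.0440. That fit was added after the data had been seen and called 14.2% of genes. The lowest KO libraries of Adcy1 were the ones with lower markers of other cells, whose part in the difference was not tested. Adcy1 spans chr11:7063489-7178506 on the plus strand.

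Adcy5, the other Gαi-inhibited cyclase and the main form in the striatum, had 11, 9 and 14 counts in WT and 23, 10 and 6 counts in KO libraries. The groups overlapped, and the difference of log2(CPM + 0.5) was 0.16 with all libraries (exact permutation p = 0.6) and −0.08 without KO replicate 1. Adcy10 had 2, 1 and 1 counts in WT and 1, 4 and 1 counts in KO libraries, at or near the floor. Adcy2 had 1 count, in WT replicate 1, and Adcy8 had none, so that no difference in either was detectable at this depth.

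The make-up of the cyclase pool was then described by summing RPKM over the 10 genes. The sum was 93.2, 93.5 and 87.0 RPKM in WT and 75.4, 58.8 and 77.5 RPKM in KO libraries. All KO sums were below all WT sums, with means of 91.3 ± 3.67 and 70.6 ± 10.2 RPKM, the latter 68.2 RPKM without KO replicate 1. These sums were scaled to the library total, a scale on which 25.9% of tested genes had all KO libraries below all WT libraries. Library size alone gave a median log2 fold change of −0.06 over all tested genes, against 0.02 in the main fit. Adcy7, not called in the edgeR quasi-likelihood test with all libraries, made up most of the difference in the sums. Its own mean went from 72.4 to 52.2 RPKM. As a share of the sum, Adcy7 held 80.0, 79.7 and 78.3% in WT and 79.0, 68.2 and 73.3% in KO libraries, and these shares overlapped. Adcy9 held 1.25, 1.26 and 1.16% in WT and 1.58, 3.23 and 2.66% in KO libraries, and these did not overlap. The mean Adcy9 share was 1.22 ± 0.0570% in WT and 2.49 ± 0.839% in KO cells, or 2.94% without KO replicate 1.

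Ratios within a library do not depend on how libraries are scaled to each other. The ratio of Adcy7 to Adcy9 per length was 63.9, 63.3 and 67.7 in WT and 50.1, 21.1 and 27.5 in KO libraries. No KO library reached a WT value, and the mean was 65.0 ± 2.40 in WT and 32.9 ± 15.2 in KO cells, or 24.3 without KO replicate 1. The ratio of Adcy9 to Adcy3 was 0.129, 0.134 and 0.124 in WT and 0.175, 0.264 and 0.236 in KO libraries, and that of Adcy9 to Adcy6 was also higher in every KO library. By contrast, the ratio of Adcy7 to Adcy6 and that of Adcy7 to Adcy3 overlapped between genotypes. Grouped by their inputs, the Gβγ-enhanced members held 79.4 ± 0.870% of the sum in WT and 74.0 ± 5.69% in KO cells. The KO mean was 71.0% without KO replicate 1, whose share of 79.9% lay within the WT range. Adcy7 alone held 79.3% and 73.5%. The calmodulin-regulated members held 9.58% in WT and 10.9% in KO cells, and the Gαi-inhibited ones 9.79% and 12.6%, with overlap in each class. Exact permutation tests on the shares, which could not go below a p of 0.1, gave 0.1 for Adcy9 and 0.2 for Adcy7. In every KO library Adcy7 was lower and Adcy9 higher than in WT, so the separation of their ratio was fixed by those values. The Adcy9 share and its other ratios draw on the same values, and none of these is further support. The sum, shares and ratios were not among the planned results.

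**Figure D3:**
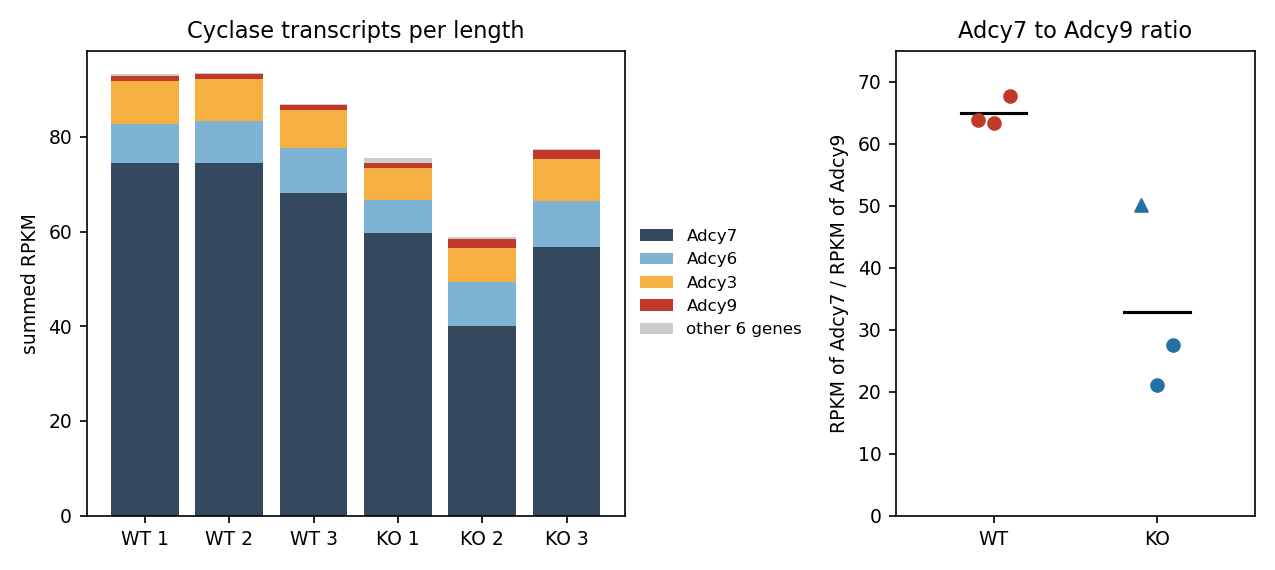
The stacked bars give the RPKM of Adcy7, Adcy6, Adcy3, Adcy9 and the other 6 genes in each library, and the panel on the right gives the ratio of Adcy7 to Adcy9 RPKM per library, with lines at the group means and KO replicate 1 as a triangle. The bars reach 87.0 to 93.5 RPKM in WT and 58.8 to 77.5 RPKM in KO libraries, and the ratio is 63.3 to 67.7 in WT and 21.1 to 50.1 in KO libraries.

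The genes whose profile over the 6 libraries was most like that of each tested member were found by the root mean square difference of their centred log2 CPM. For Adcy7 these were Traf1, an adaptor of TNF receptor signalling, at 0.0375, Fhod1, an actin regulator, at 0.0403 and Pde4dip, which anchors a phosphodiesterase, at 0.0454. For Adcy9 they were Apol7e, Xxylt1 and Ahcyl2, at 0.0758, 0.0878 and 0.102, for Adcy3 they were Paqr8, Gle1 and Zfp688, and for Adcy6 they were Fam214a, Brpf3 and Mfhas1. These values describe 6 libraries and carry no test.

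The genes around the cyclases were read from 9 lists of 122 genes in all, of which 80 were tested. Of these, 11 were higher and 6 lower in KO, or 21.2%, near the 18.8% of all tested genes, and their median log2 fold change was 0.07 against 0.02 for all genes. Among 23 receptors that couple to Gαs and so switch cyclases on, 10 were tested, 2 rose and 2 fell. Ptger2, the EP2 receptor for prostaglandin E2, had 81.5, 62.7 and 66.3 CPM in WT and 23.6, 26.9 and 25.7 CPM in KO libraries. It fell by 1.38 on the log2 scale (SE 0.12, edgeR adjusted p = 0.00101), and every KO library was far below every WT library. Ptger4, the EP4 receptor for the same ligand, had 148 ± 6.85 and 136 ± 9.88 CPM, with an edgeR adjusted p of 0.836. Ptgir, the prostacyclin receptor, had 18.1, 11.8 and 15.5 CPM in WT and 29.9, 30.8 and 40.8 CPM in KO libraries, and rose by 1.25 (SE 0.19, edgeR adjusted p = 0.00593).

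Vipr1, a receptor for vasoactive intestinal peptide, went from 28.3 ± 0.988 to 13.1 ± 5.40 CPM (log2 fold change −1.03, edgeR adjusted p = 0.0440). The call of Vipr1 was lost when any WT library or KO replicate 3 was left out, and with no filter (edgeR adjusted p = 0.0583). Calcrl, part of the receptor for calcitonin gene-related peptide, went from 25.8 ± 3.08 to 35.2 ± 5.19 CPM at the edge of the threshold (edgeR adjusted p = 0.04997). In the main fit Calcrl was not called when any of the 6 libraries was left out (edgeR adjusted p = 0.0575 without KO replicate 1). Nor was it called with another normalization or filter alone. It was called by DESeq2 (adjusted p = 0.0177) and by the edgeR likelihood ratio and exact tests (adjusted p = 0.0427 and 0.0454). With no filter and without KO replicate 1 together it was also called (edgeR adjusted p = 0.0415). Adora2a, a receptor through which T cells sense adenosine, stood at 78.9 ± 4.06 CPM in WT cells against 57.3 ± 10.4 CPM in KO (log2 fold change −0.38, edgeR adjusted p = 0.0819).

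Of 14 receptors that couple to Gαi and so restrain cyclases, 8 were tested and 2 rose. P2ry14, a receptor for UDP-glucose, had 15.3, 3.03 and 4.92 CPM in KO libraries against a WT mean of 1.71 CPM. Its log2 fold change was 2.28 (edgeR adjusted p = 0.0406), and 1.30 without KO replicate 1 (edgeR adjusted p = 0.0327). P2ry14 was not called without any 1 of the WT libraries or KO replicate 3, nor with no filter (edgeR adjusted p = 0.0563). P2ry14 was highest in the library with high monocyte, dendritic and B cell genes, whose part in the difference was not tested.

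Of the G protein subunits that act on cyclases directly, none of the 4 tested Gα genes was called. Gnas, which encodes Gαs, stood at 561 ± 31.0 CPM in WT cells against 602 ± 68.6 CPM in KO, with an edgeR adjusted p of 0.266, and the inhibitory Gnai2 and Gnai3 had adjusted p of 0.477 and 0.637. Of 17 Gβ and Gγ genes, 9 were tested, 3 rose and 0 fell. Gng12, a γ subunit, had 11.3, 12.6 and 14.7 CPM in WT and 72.5, 62.7 and 53.3 CPM in KO libraries, with all KO libraries above all WT libraries. It rose by 2.37 on the log2 scale (SE 0.17, edgeR adjusted p = 0.000581). Gng2 rose by 0.59 (edgeR adjusted p = 0.0160, not called without WT replicate 2 or 3), and Gnb4 by 0.53 (edgeR adjusted p = 0.0383, but 0.0854 without KO replicate 1, and not called without any 1 WT library or KO replicate 3). The call of Gnb4 was also lost with library size alone, with no filter and in the likelihood ratio and exact tests (edgeR adjusted p of 0.0686, 0.0777, 0.0667 and 0.0735). Among 18 tested regulators and scaffolds, 1 rose, Ppp3ca, the catalytic subunit of calcineurin, from 74.98 ± 6.39 to 121 ± 6.58 CPM (edgeR adjusted p = 0.00411).

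Downstream of the cyclases, 13 genes for phosphodiesterases and cAMP efflux were tested, of which 1 rose and 1 fell. Pde3b, a phosphodiesterase that cGMP inhibits, had 10.8, 15.1 and 16.6 CPM in WT and 48.9, 43.4 and 32.5 CPM in KO libraries. It rose by 1.63 on the log2 scale (SE 0.22, edgeR adjusted p = 0.00441). Pde7a, a cAMP-specific phosphodiesterase of T cells, fell by 0.99 (SE 0.10, edgeR adjusted p = 0.00176), from 84.8 ± 3.27 to 40.2 ± 3.53 CPM. Among 14 tested genes for PKA, EPAC and CREB proteins, 2 rose and 1 fell. Rapgef4, which encodes EPAC2, had 24.3, 20.3 and 23.6 CPM in WT and 4.19, 4.54 and 4.05 CPM in KO libraries, and fell by 2.33 (SE 0.15, edgeR adjusted p = 0.000508). Rapgef3, which encodes EPAC1, rose from a mean of 0.711 to 5.09 ± 1.21 CPM (log2 fold change 2.92, edgeR adjusted p = 0.00182), but passed the filter only through its KO libraries. Prkar1b, a regulatory subunit of PKA, rose by 1.67 (edgeR adjusted p = 0.00540).

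**Figure D4:**
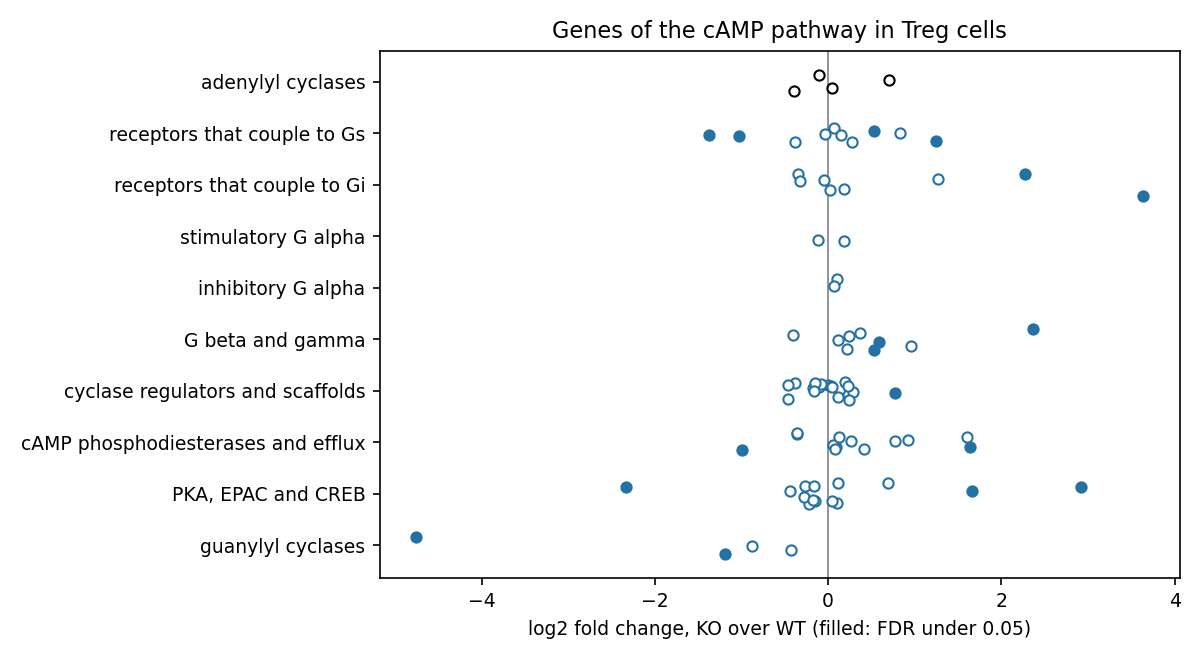
Each point is the log2 fold change of KO over WT of 1 tested gene, in a line for each of the 9 pathway lists and for the 4 tested adenylyl cyclases (black), filled where the FDR was under 0.05. The cyclases lie between −0.39 and 0.70 and none is filled, while 11 of the 80 other genes are called higher and 6 lower.

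The guanylyl cyclases, which make cyclic GMP and are the closest relatives of the adenylyl cyclases, were read for comparison. Of 10 genes, 4 were tested and 2 fell. Gucy1a3, a subunit of the nitric oxide receptor, went from 34.5 ± 8.89 to 14.3 ± 3.25 CPM (log2 fold change −1.19, edgeR adjusted p = 0.0171), a call lost without WT replicate 1, WT replicate 2 or KO replicate 3. Gucy2g, a membrane guanylyl cyclase, had 30, 44 and 40 counts in WT and 1 count in each KO library (edgeR adjusted p = 0.000931), and no fold is given because the KO libraries were under the floor. Gucy2g passed the filter only through its WT libraries, and was not tested when any of these was left out.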

How the data were processed

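The authors prepared libraries with TruSeq v2 chemistry, sequenced 51-base single-end reads, aligned them with HISAT to mm10 and counted them per gene with featureCounts without regard to strand. CASAVA, HISAT and edgeR are named in the submitters' processing notes, and versions and annotation are not given in the sources used here. The deposited values are raw counts of 24421 genes. All 6 sample columns were used. Library totals gave 3 counts a value of 0.125 to 0.216 CPM.

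The 11658 genes that exceeded 1 CPM in 3 or more libraries were tested in edgeR 4.0.16 (R 4.3.3) with TMM factors, the quasi-likelihood test and Benjamini-Hochberg adjustment over all of them. Permutation tests were exact and two-sided, on log2 of CPM plus 0.5 for single members and on the untransformed percent for shares of the summed RPKM. RPKM used exon length from GENCODE vM21 (GRCm38), to which 23334 genes matched by symbol and 675 by synonym. Of the steps, only the edgeR and DESeq2 fits were tested on simulated counts. The members and lists were chosen with earlier results of these data known. Named beside the 10 members were, per pathway list, up to 2 called genes in each direction with the smallest p whose groups did not overlap, and Gnas, Gnai2, Gnai3, Pde3b, Adora2a, Ptger2 and Ptger4. Gnb4 and Cenpo fall outside this rule and were chosen after their values were seen. The nearest profiles were planned for called members and, as none was called, given for all tested ones. The values of 1 gene that the rule names are not reported here.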

Additional observations from a re-analysis of the deposited data

How the results depend on the processing

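Alternatives covered normalization, the filter, DESeq2 1.42.0, other edgeR tests, a block on replicate number and leaving out each library. The added ones, chosen after seeing the data, were a pseudocount of 0.1, no filter together with leaving out KO replicate 1, the shorter seed match, and leaving out libraries for members below the filter. Leaving out a library gave 691 (WT replicate 2) to 2340 (KO replicate 2) genes called of all tested, 0 to 2 members and 9 to 24 pathway genes. Members called were 1 with no filter (Adcy4, with 10.1% of all genes), 1 with filterByExpr (Adcy4, 2.79, with 18.3%), which Adcy4 passed only through its KO libraries, 1 with DESeq2 (Adcy7, −0.40, with 24.6%) and 3 with no filter and without KO replicate 1 (with 14.2%, Adcy1, Adcy7 at −0.53 and Adcy9 at 0.88). Over the libraries left out, Adcy7 ranged from −0.52 to −0.24, Adcy9 from 0.55 to 0.89, Adcy3 from −0.23 to −0.05 and Adcy6 from −0.046 to 0.17, and below the filter, as differences of log2(CPM + 0.5), Adcy5 from −0.077 to 0.39 and Adcy10 from −0.035 to 0.22. Adcy6 was −0.027 and Gnai3 −0.014 with library size alone, which moved the median of all genes from 0.02 to −0.06, and Ptger4 ranged from −0.098 (without KO replicate 2) to 0.013 (without WT replicate 2). The causes were not tested.

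Libraries sharing a replicate number did not deviate together (correlations 0.0731, −0.0124 and −0.188). With 3 libraries per group this cannot exclude a pairing, and the labels do not say whether the numbers pair the mice. With the replicate block, 1606 genes were called in place of 2197, 545 in place of 847 as lower, and 0 members, with Adcy7 at −0.41 (edgeR adjusted p = 0.119) and Adcy9 at 0.67 (edgeR adjusted p = 0.137). Of the 17 called pathway genes, the block ended the call of Gnb4 (edgeR adjusted p = 0.0950). Depth limits what can be said of Adcy2, Adcy8 and Adcy10, at 4 counts or fewer per library.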
